A study of Homo sapiens with 15 samples.

Results

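Expression was measured by RNA sequencing for 10 genes commonly discussed as mediators of breast cancer spread to the brain. They were chosen by symbol as 10 of the 23368 gene rows of the count table, and the choice was made with results of these same libraries known. Their values, slopes and calls are therefore a description, and no count of calls among them is evidence about such genes in general. No metastasis was sequenced, so the grouping rests on background knowledge and not on these data.

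The 15 libraries come from 3 clones of human brain metastatic breast cancer cells, each grown from a single cell and carrying an RBM47 transgene under a doxycycline-inducible promoter. RBM47 is an RNA-binding protein. WT6 and WT10 cells carried wild type RBM47, and MUT3 cells carried RBM47-I281fs, a frameshift mutant that lacks part of the protein. In non-clonal cells the study found low levels of the mutant protein despite robust mRNA, and took it to be unstable and inactive. Doxycycline was left out or given at 1, 2.5, 5 or 25 ng/ml, and each of these 5 conditions has 1 library in each clone and no replicate. The labels give MDA231 as the line of all 3 clones, whereas the methods of the study derive WT6 from CN34-BrM2 and WT10 and MUT3 from MDA231-BrM2. Clone and line cannot be told apart when WT6 is set against WT10, and clone and transgene cannot be told apart when WT10 is set against MUT3. The duration of the treatment is not given in the sources used here.

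Spread to the brain requires tumor cells to cross the blood-brain barrier, to withstand plasmin generated by reactive astrocytes and to grow along capillaries. Serpins block the activation of plasminogen into plasmin, and the adhesion molecule L1CAM, itself a plasmin substrate, holds tumor cells to vessels. Cyclooxygenase-2, epidermal growth factor (EGF) receptor ligands and a brain-type sialyltransferase are known for their part in barrier crossing. Several of these genes are expressed from short-lived mRNAs that carry AU-rich elements, of which the core pentamer is ATTTA, in the 3′ untranslated region (3′UTR).

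The 3′UTR windows densest in ATTTA are shown because the members differ widely in this feature. ATTTA is not a sequence that the study reported for RBM47. The study found no clear sequence preference of RBM47, apart from some preference for stretches of U near crosslinked positions. The pentamer was searched on the transcript strand of 1 GENCODE transcript per gene on hg19. Each line gives, for 1 of the 7 members that hold the pentamer, 30 bases of the 3′UTR, 5′ to 3′, with ATTTA in capitals. All lie within 1 exon.
PTGS2, chr1:186643448-186643477, minus strand: atgatcatATTTATTTATTTAtatgaacca
HBEGF, chr5:139713250-139713279, minus strand: ATTTAttttattctatgtatgttaATTTAt
ST6GALNAC5, chr1:77529400-77529429, plus strand: aatgtccaatATTTATTTAttgagagtttt
SERPINB2, chr18:61570606-61570635, plus strand: aaattgccaaaaATTTAgagatgttttcta
LTBP1, chr2:33623751-33623780, plus strand: gacaatgagaggATTTAggatgagcccgat
PELI1, chr2:64320009-64320038, minus strand: tttgcaattaATTTATTTAaactaagtaaa
C13orf15, chr13:42044785-42044814, plus strand: catttctgggcaATTTAgacagtgaaactg

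The 3′UTR of PTGS2 held 22 ATTTA pentamers in 2562 bases, the most of any member, 3 of them overlapping in the window shown. Of the 2493 3′UTRs of similar length (0.8 to 1.25 times), 0.08% held at least as many. HBEGF held 5 in 1456 bases, SERPINB2 held 4 in 583 bases, and ST6GALNAC5 held 11 in 4340 bases. PELI1 held 8 in 2050 bases, LTBP1 held 2 in 964 bases and C13orf15 held 2 in 386 bases. As many or more were held by 27.6% (HBEGF), 8.02% (SERPINB2), 43.6% (ST6GALNAC5), 20.7% (PELI1), 51.2% (LTBP1) and 18.8% (C13orf15) of 3′UTRs of similar length. L1CAM, ANGPTL4 and FSCN1 held none in 1147, 484 and 1181 bases, which says only that these letters are absent from those transcripts. Over all 18519 genes with an annotated 3′UTR, 68.5% held at least 1 ATTTA. Runs of 6 T, counted with overlap, numbered 10 in PTGS2, 8 in PELI1, 6 in FSCN1, 4 in LTBP1 and 3 in ST6GALNAC5. HBEGF, L1CAM, SERPINB2, ANGPTL4 and C13orf15 held 0 of them. No binding of RBM47 was measured in these libraries. The study measured it separately in MDA231-BrM2 cells, by sequencing RNA crosslinked to tagged RBM47, and those data were not used here.

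RBM47 itself checked the clones. Its normalized count, which is a read count scaled by a size factor to make libraries comparable, was 258 in untreated WT6 cells and 10425 at 25 ng/ml. The order of doses was kept in WT10 cells, from 168 to 19877, and in MUT3 cells, from 73.8 to 22084. In WT6 cells it was not kept, since the count was 8094 at 2.5 ng/ml and 3966 at 5 ng/ml. Vimentin (VIM) lay between 50755 and 104639 in all libraries, the estrogen receptor gene ESR1 at 12.0 or lower, and HER2 (ERBB2) between 1018 and 1584. CD44 lay between 7100 and 22521, and the epithelial keratins KRT8 and KRT18 between 8159 and 31010 and between 8663 and 24036. Marker genes of leukocytes (PTPRC), endothelium (CDH5) and fibroblasts (PDGFRA) reached at most 6.18, 1.08 and 6.29, where 3 reads equal 1.19 to 4.09. PECAM1, another endothelial gene, lay between 4.26 and 8.72 in WT6, 0.397 and 2.16 in WT10 and 3.75 and 9.19 in MUT3 cells. COL1A1, another fibroblast gene, went the other way from PDGFRA and lay between 178 and 493. Libraries held 14955172 to 44771871 reads on genes (median 18152381), the most in WT10 at 5 ng/ml.

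All 10 members passed the filter on low values, which asked for a clone mean of 10 or more in all 3 clones. Their levels per kilobase of transcript spanned a wide range, and the order differed between clones. In untreated WT10 cells SERPINB2 led with 7271 per kilobase, and C13orf15 was lowest with 23.7. In untreated WT6 cells ANGPTL4 led with 2429 per kilobase, and SERPINB2 was lowest with 10.9.

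**Figure D1:**
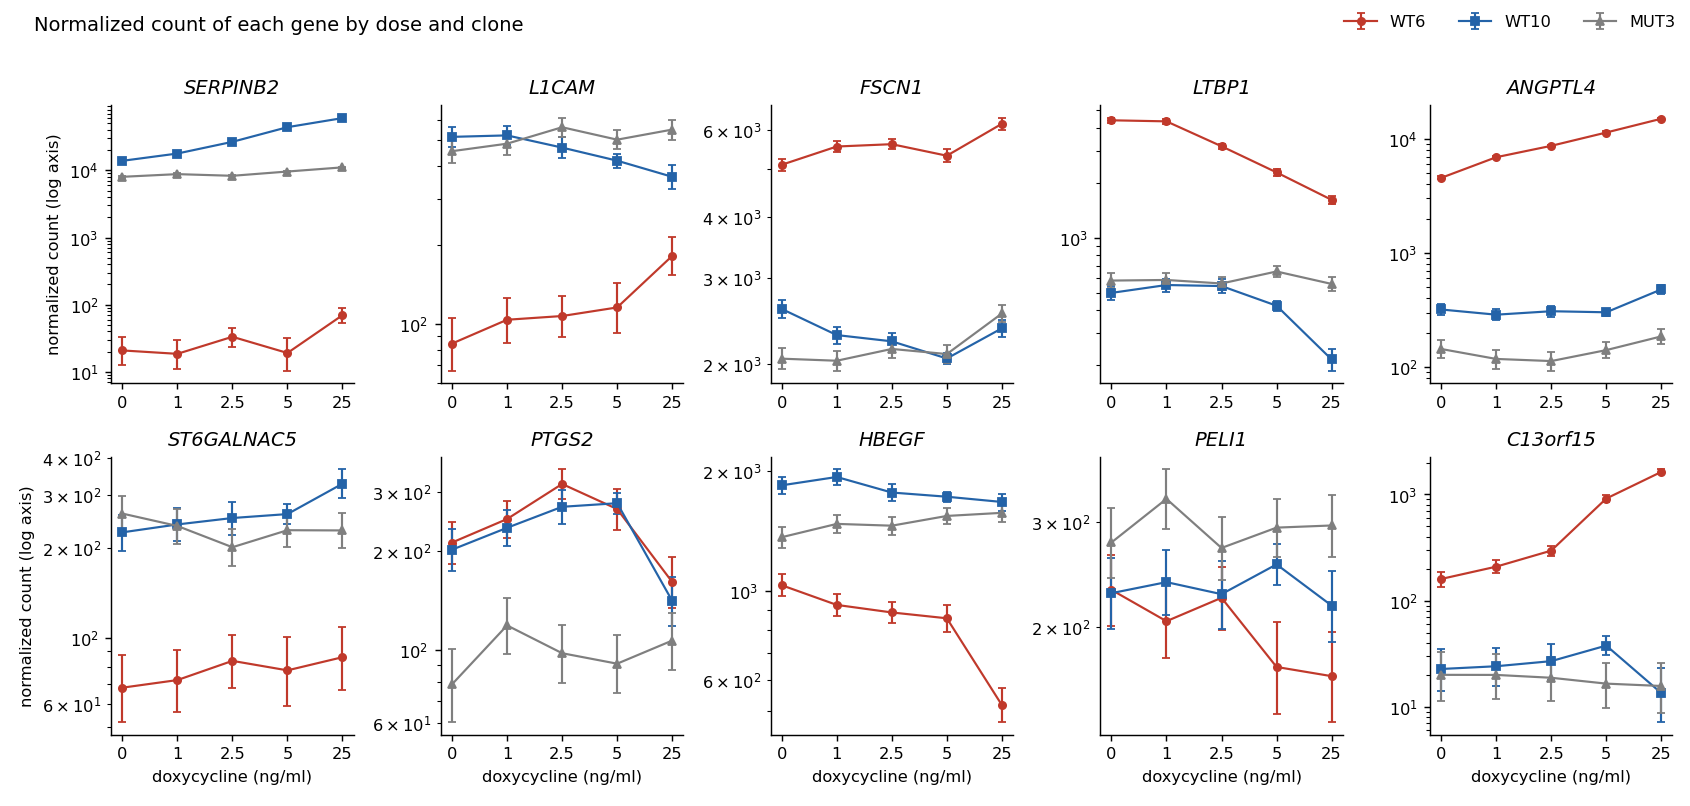
Normalized count (log axis, a separate scale for each gene) of the 10 genes against the doxycycline dose in ng/ml, with the doses evenly spaced. Each point is 1 library, bars are exact 95% Poisson intervals of counting error, and WT6 is shown by red circles, WT10 by blue squares and MUT3 by grey triangles. SERPINB2 climbed from 13858 to 59999.7 in WT10 cells and stayed at 69.8 or lower in WT6 cells, where C13orf15 and ANGPTL4 climbed.

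The change with dose was estimated as a slope, in log2 normalized count per unit of log2(dose + 1), on which scale 25 ng/ml lies 4.70 units above the untreated sample. In WT6 cells 7 of the 10 members passed the adjusted p threshold of 0.05 in limma's test across all genes, where 57.5% of all 12644 genes tested passed it. SERPINB2, L1CAM, ANGPTL4 and C13orf15 rose, against 29.2% of all genes that rose, and HBEGF, LTBP1 and PELI1 fell, against 28.3% that fell. In WT10 cells 4 members passed, against 20.0% of all genes. SERPINB2 and ST6GALNAC5 rose there, against 10.2% that rose, and L1CAM and LTBP1 fell, against 9.83% that fell. In MUT3 cells 0 members passed, as did 0% of all genes, although 2 members and 295 of all genes had an unadjusted p under 0.05. The induced RBM47 did not pass there either (limma adjusted p = 0.0517), although its count was 73.8 untreated and 22084 at 25 ng/ml. A lack of calls in MUT3 cells therefore does not show a lack of response in that clone. The median slope of the members was 0.06 (WT6), −0.03 (WT10) and 0.04 (MUT3), beside medians over all genes of 0.01, −0.0027 and 0.0033.

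SERPINB2 and LTBP1 changed in the same direction in both wild type clones, whereas L1CAM rose in WT6 and fell in WT10 cells. The WT6 values moved with transcript length: of 5 equal classes of genes by length, the shortest had a median log2 change of 0.60 at 5 and 0.58 at 25 ng/ml, and the longest of −0.41 and −0.46. In the WT10 and MUT3 libraries these medians stayed between −0.08 and 0.06. With the trends with length and GC content removed, 6 members passed in WT6 cells. SERPINB2 (slope 0.33, adjusted p = 0.109) and PELI1 (−0.06, adjusted p = 0.133) no longer did, and ST6GALNAC5 did (0.16, adjusted p = 0.018). The share of all genes that passed after this removal is not given here, so the count of 6 cannot be set against it.

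**Figure D2:**
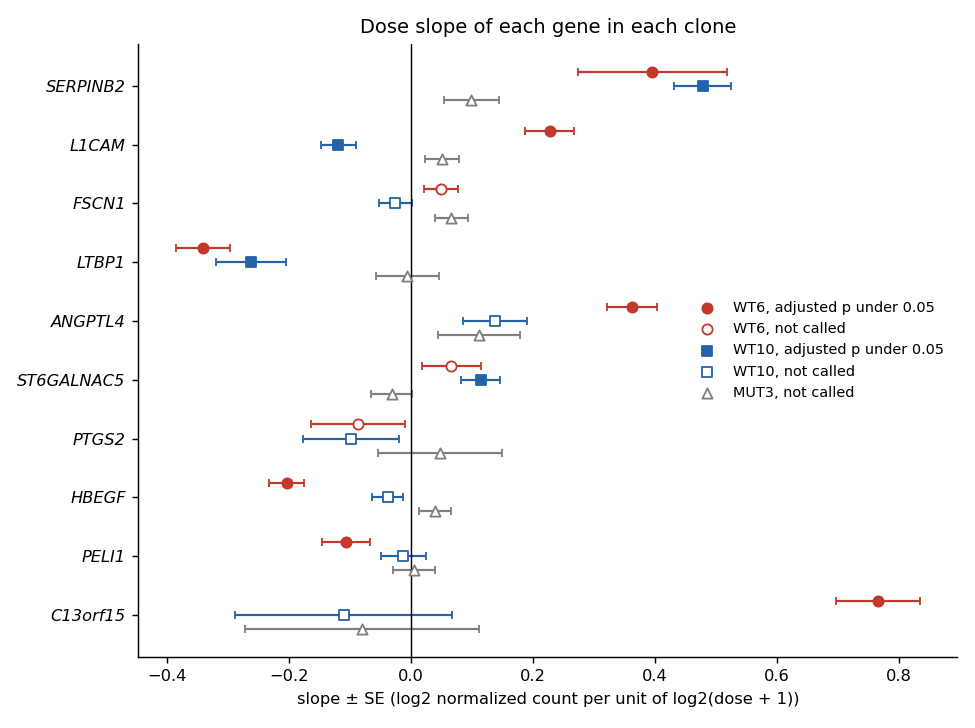
Dose slope of each gene ± SE (log2 normalized count per unit of log2(dose + 1)) in WT6 (red circles), WT10 (blue squares) and MUT3 (grey triangles) cells, from 1 fit over 15 libraries. Filled symbols had an adjusted p under 0.05 across all genes, and no MUT3 symbol is filled. The slope of L1CAM lies at 0.23 in WT6 and −0.12 in WT10 cells, and that of C13orf15 at 0.77 in WT6 cells.

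SERPINB2 (ENSG00000197632, hg19 chr18:61538926-61571122, plus strand) encodes plasminogen activator inhibitor 2, an inhibitor of urokinase. In WT10 cells its normalized count was 13858 untreated, then 17795, 26578, 43946 and 59999.7 at 1, 2.5, 5 and 25 ng/ml. In MUT3 cells the corresponding counts were 8012, 8782, 8296, 9604 and 11078. Every WT10 library lay above every MUT3 library, and no counting intervals of neighbouring WT10 doses overlapped.
The 25 ng/ml to untreated ratio was 4.33 in WT10 cells (95% counting interval 4.25 to 4.41) and 1.38 in MUT3 cells (1.34 to 1.43). The slope was 0.48 ± 0.05 (SE) in WT10 cells, with a limma adjusted p of 2.02e-05, and 0.10 ± 0.05 in MUT3 cells. Their difference, 0.38 ± 0.07, passed the test (limma adjusted p = 0.00693), which 5.62% of all genes did. It no longer passed without MUT3 at 25 ng/ml (0.40, adjusted p = 0.379), without WT10 at 25 ng/ml (0.54, adjusted p = 0.0669) or without precision weights (0.38, adjusted p = 0.0627), whereas the WT10 slope passed without any 1 library. WT6 cells had a different level altogether, with counts of 20.8, 18.5, 33.3, 19.1 and 69.8 in order of dose. The library at 25 ng/ml stood above the other WT6 libraries. Its clone had a slope of 0.40 ± 0.12 (limma adjusted p = 0.0127), which was 0.05 without this library. A transcript on the same strand (ENSG00000289724) overlaps the gene, so reads of the pair may not be told apart.

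L1CAM (chrX:153126969-153151627, minus strand) encodes the L1 cell adhesion molecule. Its normalized counts in WT6 cells were 84.4, 104, 107, 116 and 182 in order of dose. In WT10 cells they were 516, 523, 470, 419 and 364. In MUT3 cells they were 455, 486, 561, 504 and 550. The WT6 library at 25 ng/ml was the highest of that clone, the WT10 library at 25 ng/ml the lowest of its own, and WT10 and MUT3 ranges overlapped.
The slope was 0.23 ± 0.04 in WT6 cells (limma adjusted p = 0.00033) and −0.12 ± 0.03 in WT10 cells (limma adjusted p = 0.0102). With the 25 ng/ml library of the clone left out, neither passed, at 0.16 in WT6 (adjusted p = 0.121) and −0.12 in WT10 cells (adjusted p = 0.302). These slopes differed by 0.35 ± 0.05 (limma adjusted p = 0.00427), in a comparison that 14.4% of all genes passed, and by 0.28 with an adjusted p of 0.0729 once WT6 at 25 ng/ml was left out. WT10 also differed from MUT3 cells, by −0.17 ± 0.04 (limma adjusted p = 0.0257), the MUT3 slope being 0.05 ± 0.03. With the doses coded by rank this last difference was −0.19 with an adjusted p of 0.0635. It also did not pass without WT10 at 1 or 25 ng/ml or without MUT3 at 0, 1 or 25 ng/ml, with values of −0.20 to −0.15 and adjusted p of 0.0568 to 0.425. A gene on the same strand (ENSG00000284987) overlaps L1CAM, so reads of the pair may not be told apart. An antisense gene, L1CAM-AS1, overlaps it too, and whether the libraries are stranded is not given in the sources used here.

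LTBP1 (chr2:33172020-33624576, plus strand) encodes a protein that tethers latent TGF-β to the extracellular matrix. It had the lowest slope of the members in both wild type clones, and its transcript, at 6502 bases, is the longest among them. In WT6 cells the normalized count was 4413, 4354, 3178, 2283 and 1614 in order of dose. In WT10 cells it was 498, 550, 543, 423 and 214. In MUT3 cells it was 582, 586, 560, 652 and 557. The decrease set in at 2.5 ng/ml in WT6 cells and at 5 ng/ml in WT10 cells, and no MUT3 library was lower than any WT10 library.
The slope was −0.34 ± 0.04 in WT6 cells (limma adjusted p = 3.4e-05) and −0.26 ± 0.06 in WT10 cells (limma adjusted p = 0.00531). With the length and GC trends removed, the WT6 slope was −0.24. The 25 ng/ml library was at 0.366 of the untreated level in WT6 cells (0.343 to 0.390) and at 0.431 in WT10 cells (0.364 to 0.509). The difference between WT10 and MUT3 slopes, −0.26 ± 0.08, did not pass (limma adjusted p = 0.0623). Without the library at 25 ng/ml the WT10 slope was −0.07, with an adjusted p of 0.697. LTBP1 is overlapped by 1 gene on its own strand and 4 on the other.

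FSCN1 (chr7:5632447-5646286, plus strand) encodes fascin, which bundles actin filaments in protrusions. Its normalized count lay between 5103 and 6187 in WT6 cells, between 2053 and 2591 in WT10 cells and between 2031 and 2536 in MUT3 cells. The WT6 libraries stood above all others, and those of WT10 and MUT3 overlapped. Its slopes were 0.05 ± 0.03, −0.03 ± 0.03 and 0.07 ± 0.03 in WT6, WT10 and MUT3 cells, and none passed.

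ANGPTL4 (chr19:8428173-8439254, plus strand) encodes a secreted inhibitor of lipoprotein lipase that also acts on vessels. In WT6 cells its normalized count was 4547, 6901, 8684, 11363 and 15008 in order of dose. In WT10 cells it was 319, 287, 308, 302 and 479. In MUT3 cells it was 144, 118, 113, 141 and 185. Each WT6 dose stood above the one before, whereas in WT10 and MUT3 cells the 25 ng/ml library alone lay above the untreated one.
The 25 ng/ml to untreated ratio was 3.30 in WT6 (3.19 to 3.42), 1.5 in WT10 (1.29 to 1.74) and 1.29 in MUT3 cells (1.01 to 1.65). The slope of 0.36 ± 0.04 in WT6 cells had a limma adjusted p of 1.25e-05, and the slope of 0.14 ± 0.05 in WT10 cells one of 0.0738. Their difference, 0.22 ± 0.07, passed (limma adjusted p = 0.0397). With the length and GC trends removed it was 0.11, with an adjusted p of 0.324. It passed by little, since leaving out any of 8 single libraries raised the adjusted p to between 0.0502 and 0.245, with differences of 0.16 to 0.23. In MUT3 cells the slope was 0.11 ± 0.07. The WT10 slope passed with each clone fitted alone (0.14, limma adjusted p = 0.0331) and with DESeq2 (0.14, adjusted p = 0.0435). It also passed without WT6 at 5 or 25 ng/ml or without WT10 at 0 ng/ml. Without WT10 at 25 ng/ml it was −0.020, and with the length and GC trends removed it did not pass (0.14, adjusted p = 0.105).

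ST6GALNAC5 (chr1:77333165-77533231, plus strand) encodes a sialyltransferase of gangliosides that is normally restricted to the brain. In WT10 cells its normalized count was 225, 239, 251, 259 and 327 in order of dose. In MUT3 cells it was 260, 236, 201, 229 and 228. In WT6 cells it was 67.9, 72.1, 83.6, 77.7 and 86.0. The WT10 library at 25 ng/ml was the highest of all, and the WT6 libraries lay below those of both other clones.
The WT10 slope was 0.11 ± 0.03 (limma adjusted p = 0.0202), and the ratio of 25 ng/ml to untreated was 1.46 (1.22 to 1.74). The slopes of 0.07 ± 0.05 in WT6 and −0.03 ± 0.03 in MUT3 cells did not pass. The difference of 0.15 ± 0.05 between WT10 and MUT3 did not pass (limma adjusted p = 0.0756) and was 0.16, with an adjusted p of 0.0272, once length and GC trends were removed. Without the 25 ng/ml library the WT10 slope was 0.08, with an adjusted p of 0.556, and without the untreated one it was 0.12, with an adjusted p of 0.0536. A gene on the same strand, AC096951.1, overlaps ST6GALNAC5.

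PTGS2 (chr1:186640923-186650054, minus strand) encodes cyclooxygenase-2, the inducible enzyme of prostaglandin synthesis. In WT6 cells its normalized count was 212, 249, 318, 267 and 161 in order of dose. In WT10 cells it was 201, 234, 271, 278 and 141. In MUT3 cells it was 78.8, 119, 97.9, 91.0 and 107. In both wild type clones the count was highest at a middle dose, 2.5 ng/ml in WT6 and 5 ng/ml in WT10 cells, and lowest at 25 ng/ml, while in MUT3 cells the lowest library was the untreated one.
From 5 to 25 ng/ml the count changed to 0.602 of its level (WT6), 0.507 (WT10) and 1.17 (MUT3). A straight line over dose does not describe such a course, and the slopes of −0.09 ± 0.08 in WT6 and −0.10 ± 0.08 in WT10 cells did not pass. Without the library at 25 ng/ml of the clone, they were 0.16 and 0.19, with adjusted p of 0.300 and 0.448. The MUT3 slope was 0.05 ± 0.10. An antisense transcript, PACERR, overlaps the gene.

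HBEGF (chr5:139712428-139726188, minus strand) encodes heparin-binding EGF-like growth factor, a ligand of the EGF receptor. In WT6 cells its normalized count was 1036, 924, 885, 856 and 518 in order of dose. In WT10 cells it was 1845, 1936, 1769, 1727 and 1675. In MUT3 cells it was 1367, 1476, 1461, 1545 and 1573. The ranges of the 3 clones did not overlap, with WT10 highest and WT6 lowest, and WT6 at 25 ng/ml stood apart below the rest of its clone.
The ratio of 25 ng/ml to untreated was 0.50 in WT6 (0.445 to 0.562), 0.908 in WT10 (0.848 to 0.973) and 1.15 in MUT3 cells (1.06 to 1.25). The slope of −0.20 ± 0.03 in WT6 cells passed (limma adjusted p = 6.3e-05), and it differed from that of WT10 by −0.17 ± 0.04 (limma adjusted p = 0.0204). Without the 25 ng/ml library of WT6 the slope was −0.11, with an adjusted p of 0.0573, and the difference from WT10 was −0.07, with an adjusted p of 0.324. That difference also did not pass without WT10 at 0 ng/ml (−0.15, adjusted p = 0.109), without WT10 at 25 ng/ml (−0.16, adjusted p = 0.0651) or with doses coded by rank (−0.16, adjusted p = 0.0518). The WT10 slope of −0.04 ± 0.03 and the MUT3 slope of 0.04 ± 0.03 did not pass.

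PELI1 (chr2:64319786-64371554, minus strand) encodes a ubiquitin ligase of Toll-like and interleukin-1 receptor signaling. Its normalized count lay between 166 and 231 in WT6 cells, between 218 and 255 in WT10 cells and between 272 and 329 in MUT3 cells. The MUT3 libraries stood above all libraries of the wild type clones. In WT6 cells the slope was −0.11 ± 0.04 (limma adjusted p = 0.0315), and in WT10 and MUT3 cells it was −0.01 ± 0.04 and 0.0047 ± 0.03. The WT6 slope did not pass without the untreated library (−0.10, adjusted p = 0.124) or without that at 25 ng/ml (−0.13, adjusted p = 0.157). A gene on the opposite strand (ENSG00000225889) overlaps PELI1.

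C13orf15 is the symbol in the count table for RGCC (chr13:42031686-42045007, plus strand), which encodes a regulator of the cell cycle that binds CDK1. In WT6 cells its normalized count was 160.0, 209, 296, 916 and 1632 in order of dose. The largest fold step lay between 2.5 and 5 ng/ml, and the 25 ng/ml to untreated ratio was 10.2 (8.59 to 12.2). Counts in WT10 cells were 22.7, 24.1, 26.9, 37.7 and 13.5. In MUT3 cells they were 20.0, 20.0, 18.8, 16.5 and 15.7. Counting intervals of neighbouring doses overlapped in MUT3 cells, and in WT10 cells all but those of 5 ng/ml (30.5 to 46.1) and 25 ng/ml (7.17 to 23.0). The lowest library held 13 reads.
The WT6 slope of 0.77 ± 0.07 was the highest of the members (limma adjusted p = 3.07e-06) and differed from the WT10 slope of −0.11 ± 0.18 by 0.88 ± 0.19 (limma adjusted p = 0.0177). Leaving out WT10 at 25 ng/ml made this difference 0.49, with an adjusted p of 0.292, and leaving out WT10 at 0 ng/ml made it 0.97, with an adjusted p of 0.0884. The transcript of 958 bases is the shortest among the members, and with length and GC trends removed the WT6 slope was 0.60. In MUT3 cells the slope was −0.08 ± 0.19.

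The levels at 0 ng/ml, taken from the intercepts of the same fit, were compared between clones. Between WT10 and MUT3 cells 4 of 10 members passed, against 28.2% of all genes, and all 4 were higher in WT10 cells, against 14.3% of all genes. PTGS2 differed by 1.45 ± 0.33 on the log2 scale, ANGPTL4 by 1.21 ± 0.23, SERPINB2 by 0.86 ± 0.17 and HBEGF by 0.43 ± 0.09. Their limma adjusted p ran from 0.0011 to 0.00409. The PTGS2 difference was 1.23, with an adjusted p of 0.0656, without the untreated MUT3 library. Untreated WT10 cells held 2.55 times the PTGS2 count of MUT3 cells.
Between WT6 and WT10 cells 8 members passed, against 59.6% of all genes. ANGPTL4 (4.23 ± 0.17), LTBP1 (2.96 ± 0.18), C13orf15 (2.36 ± 0.48) and FSCN1 (1.12 ± 0.10) were higher in WT6 cells, as were 30.8% of all genes. SERPINB2 (−9.75 ± 0.38), L1CAM (−2.68 ± 0.14), ST6GALNAC5 (−1.63 ± 0.15) and HBEGF (−0.79 ± 0.10) were lower, as were 28.8% of all genes. PTGS2 and PELI1 differed by 0.08 ± 0.27 and −0.05 ± 0.14 and did not pass. The WT6 count of SERPINB2 was 0.0015 of the WT10 count in untreated cells, and that of ANGPTL4 14.2 times it.

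**Figure D3:**
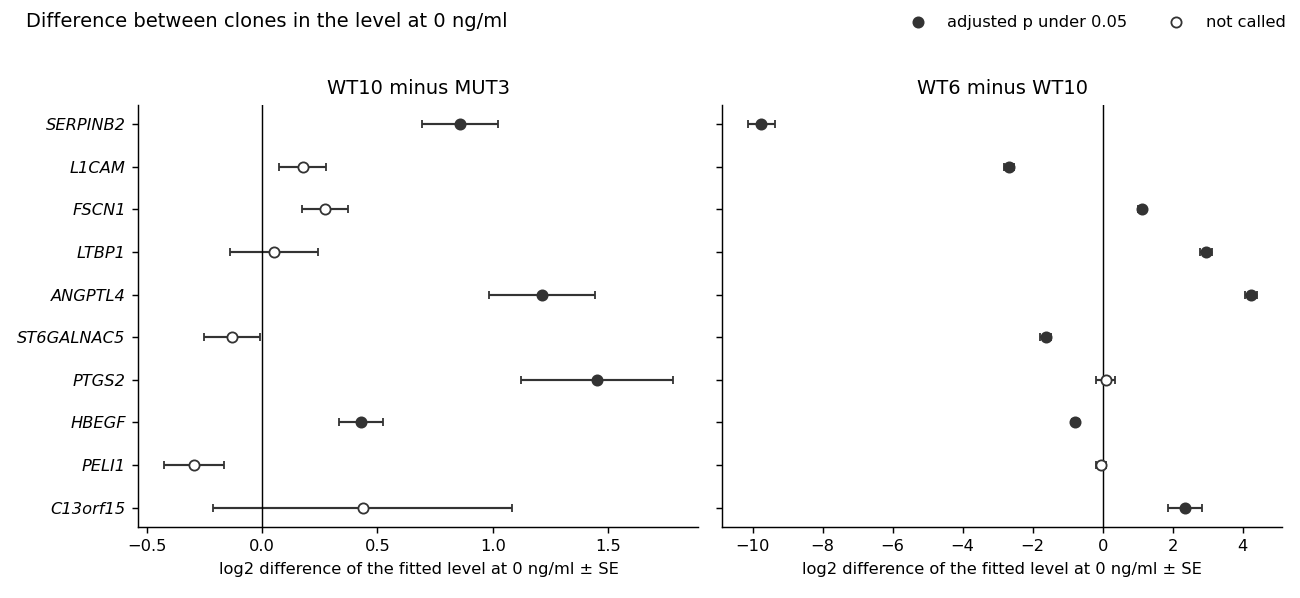
Difference between clones in the fitted level at 0 ng/ml (log2 scale, ± SE) for WT10 minus MUT3 (left) and WT6 minus WT10 (right), with separate axes. Filled symbols had an adjusted p under 0.05 across all genes. SERPINB2 lies at −9.75 and ANGPTL4 at 4.23 in WT6 minus WT10, while no filled symbol is below 0 in WT10 minus MUT3.

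The genes that work with the members were examined as 9 lists with 73 genes in all, of which 50 passed the filter. In WT6 cells 14 rose and 17 fell, near the 29.2% and 28.3% of all genes. In WT10 cells 6 rose and 6 fell, against 10.2% and 9.83% of all genes, and in MUT3 cells 0 passed. Among 8 tested prostaglandin genes PLA2G4A, the phospholipase that releases arachidonic acid for cyclooxygenases, fell in WT10 cells (slope −0.19 ± 0.05) and in WT6 cells (−0.27 ± 0.05). The other WT10 prostaglandin slopes did not pass. Of 8 tested genes of the EGF receptor system the ligands EREG (0.14 ± 0.04) and TGFA (0.18 ± 0.03) rose in WT10 cells and the receptor ERBB2 fell (−0.11 ± 0.04). The MUT3 slopes were 0.11 ± 0.04 (EREG), 0.08 ± 0.04 (TGFA) and 0.04 ± 0.04 (ERBB2). The WT10 minus MUT3 differences of 0.03 ± 0.06, 0.10 ± 0.05 and −0.14 ± 0.05 did not pass. TGFA ran from 438 untreated to 782 at 25 ng/ml in WT10 cells and from 1508 to 1456 in WT6 cells.
In the plasminogen system, with 9 tested genes, the inhibitors SERPINF2 (0.40 ± 0.08) and SERPINI1 (0.12 ± 0.03) rose in WT10 cells, and the urokinase receptor PLAUR fell (−0.08 ± 0.03). The MUT3 slopes of SERPINF2 and PLAUR were 0.26 ± 0.10 and 0.04 ± 0.03. Their WT10 minus MUT3 differences of 0.14 ± 0.13 and −0.13 ± 0.04 did not pass. SERPINI1, which encodes neuroserpin, went from 201 to 280 in WT10 cells, from 110 to 172 in WT6 cells and from 108 to 126 in MUT3 cells. Its slope of 0.13 ± 0.04 in WT6 cells also passed, and that of 0.02 ± 0.04 in MUT3 cells did not.
Among the genes around PELI1, with 7 tested, the kinase gene IRAK2 rose in WT10 cells (0.28 ± 0.05) and IRAK1 fell (−0.11 ± 0.03). ANGPTL6 rose (0.14 ± 0.05) among 3 tested genes near ANGPTL4. The actin crosslinkers ACTN4 (−0.19 ± 0.03) and ACTN1 (−0.10 ± 0.03) fell among 3 tested genes near FSCN1. Of 7 latent TGF-β genes, 4 sialyltransferase genes and 1 gene of the L1 family, 0 passed in WT10 cells in limma's test. In the difference between WT10 and MUT3 slopes 2 of the 50 genes passed, a smaller share than the 5.62% of all genes, both lower in WT10 cells. They were ACTN4 (−0.20 ± 0.05) and PLAT (−0.18 ± 0.04), the tissue plasminogen activator, the latter named after its values were seen.

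**Figure D4:**
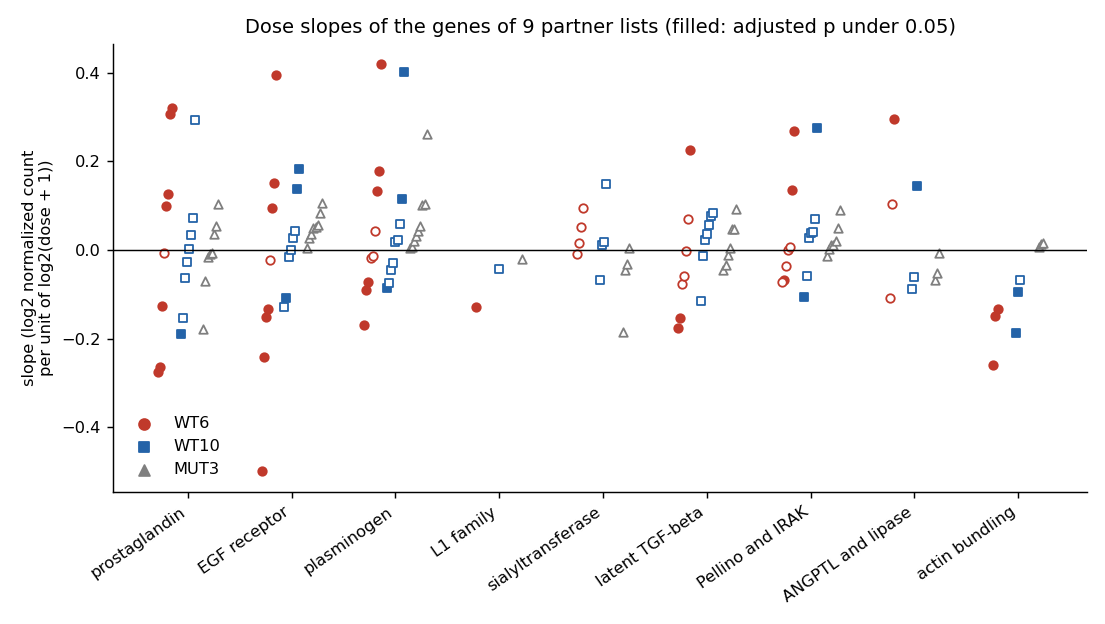
Dose slopes (log2 normalized count per unit of log2(dose + 1)) of the 50 tested genes of 9 lists, 1 symbol per gene and clone, with WT6 as red circles, WT10 as blue squares and MUT3 as grey triangles. Filled symbols had an adjusted p under 0.05 across all genes. Filled WT6 symbols lie on both sides of 0 in most lists, and no MUT3 symbol is filled.

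The genes most like each member were found by Pearson's r of log2 values after subtracting the mean of each clone, over the 15 libraries, which share doses and libraries. For LTBP1 they were NAT10 and FKBP5 (both r = 0.98), for C13orf15 SMYD2 (0.98) and SRSF8 (0.96), and for HBEGF HNRNPK (0.97) and NEK2 (0.96). SERPINB2 came with PRDM4 (0.96) and RNF145 (0.95), L1CAM with MARVELD1 (0.95) and TSNAXIP1 (0.92), and ANGPTL4 with TPGS1 (0.95) and PMM2 (0.94). PTGS2 had SKAP2 (0.93) and PLSCR1 (0.91), PELI1 had ZNF518A (0.93) and STXBP4 (0.92), ST6GALNAC5 had ME1 (0.91) and TMEM192 (0.89), and FSCN1 had ASCC2 (0.87) and TNFRSF1A (0.86). No member was among the closest genes of another.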

How the data were processed

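RNA was sequenced from 15 libraries of 3 clones at 5 doses, which the sample labels name. The authors selected polyA RNA, aligned reads to hg19 (STAR), assigned them to genes (HTSeq 0.5.4) and scaled libraries with DESeq. The deposited table, of 23368 genes beside 5 HTSeq tallies, holds this normalized signal. Between 56.5% and 59.6% of tallied reads fell on no feature and were left out. Whole reads were recovered as multiples of the smallest nonzero value of a column (100% of values whole within 0.01). Counting intervals are exact Poisson intervals at 95% and cover counting error only.

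Slopes were fitted with limma 3.58.1 (vooma weights) in R 4.3.3 on log2(normalized count + 1), giving every clone its own intercept and its own slope on log2(dose + 1), over 12644 genes and 15 libraries (9 residual degrees of freedom). Benjamini-Hochberg adjustment covered all genes, with a threshold of 0.05, two-sided. With no replicates, p-values measure the scatter of the 5 doses around a line in each clone. This scatter was pooled over the 3 clones and moderated across genes, so the p of 1 clone does not rest on its own libraries alone. edgeR 4.0.16 and DESeq2 1.42.0 on the recovered reads served as alternatives. The fit was also run on simulated reads with known linear slopes in WT10 cells. The outcome is not given here, and no result rests on it. Transcripts came from GENCODE release 44 on hg19, which matched 91.9% of genes. Ordering and figures used Python 3.11.15.

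The members and all lists were chosen with earlier results of these data known. Named genes are the 10 members, RBM47, those partner genes called in WT10 cells (at most the 4 with the largest slope in a list) and the 2 genes most like each member.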

Additional observations from a re-analysis of the deposited data

Results flagged for a closer look

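Of the dose slopes compared between clones, 6 differed by the test of the difference itself. SERPINB2 (0.38) and L1CAM (−0.17) differed between WT10 and MUT3 cells. L1CAM (0.35), C13orf15 (0.88), ANGPTL4 (0.22) and HBEGF (−0.17) differed between WT6 and WT10 cells. Each difference rests on 5 libraries per clone without replicates, and the clones differ in more than the transgene. With the length and GC trends removed, the WT6 minus WT10 differences were 0.35 for L1CAM, 0.72 for C13orf15 and −0.20 for HBEGF, all still past the threshold, and 0.11 for ANGPTL4, no longer past it. Each of these 4 calls also ended without some single library. Without WT6 at 25 ng/ml L1CAM had 0.28 (adjusted p = 0.0729) and HBEGF −0.07 (adjusted p = 0.324), without WT10 at 25 ng/ml C13orf15 had 0.49 (adjusted p = 0.292), and without WT10 at 0 ng/ml ANGPTL4 had 0.16 (adjusted p = 0.245). Without the WT10 library at 25 ng/ml, and likewise without the MUT3 library at that dose, 0 members passed the threshold of limma's test in WT10 minus MUT3. The share of all genes that passed in those fits is not given here.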

How the results depend on the processing

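The untreated differences kept their counts within 1.5 times under every alternative run (3 to 5 members for WT10 against MUT3 and 8 for WT6 against WT10 without 1 library), while the counts of dose slopes depended on the covariate and on the 25 ng/ml libraries. The share of all genes that passed under each alternative is not given here. A change of count can therefore not be read as particular to the members. With the log2 RBM47 count in place of the dose, 0 members passed in WT6, 1 in WT10, 0 in WT10 minus MUT3 and 0 in WT6 minus WT10. Without the 3 libraries at 25 ng/ml the counts were 3, 1, 0 and 1. Pearson's correlation with RBM47 within a clone, at an unadjusted p under 0.01, left 1 member in WT6, 3 in WT10 and 1 in MUT3 cells. With each clone fitted alone, 2 members (SERPINB2 and FSCN1) passed in MUT3 cells. The 0% of all genes called in MUT3 cells belongs to the joint fit and not to this one. With doses coded by rank, 1 member passed in WT10 minus MUT3. Without 1 library the counts ran from 3 to 8 in WT6, 1 to 5 in WT10, 0 to 0 in MUT3, 0 to 4 in WT10 minus MUT3 and 1 to 4 in WT6 minus WT10. The lowest of these came without WT6 at 25, without WT10 at 25, without WT10 or MUT3 at 25, and without WT10 at 0 ng/ml. Without precision weights 2 members again passed in WT10 minus MUT3, L1CAM and LTBP1, and SERPINB2 (0.38) had an adjusted p of 0.0627. No filter, a pseudocount of 5, TMM factors, edgeR and DESeq2 left all counts within 1.5 times. The cause of these changes was not tested. Pearson's correlation and the separate fits give no difference between clones.

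Every change of sign concerned a value that did not pass in either fit. Without the 25 ng/ml libraries the slopes became 0.16 for PTGS2 in WT6, and in WT10 cells 0.19 for PTGS2, −0.020 for ANGPTL4, 0.048 for PELI1 and 0.27 for C13orf15. In MUT3 cells they became −0.029 for ANGPTL4 and 0.049 for LTBP1. The WT10 minus MUT3 difference became 0.14 for PTGS2, 0.047 for PELI1 and 0.37 for C13orf15, and the WT6 minus WT10 difference 0.012 for ST6GALNAC5 and −0.029 for PTGS2. The untreated difference became −0.081 for LTBP1 (WT10 minus MUT3) and 0.043 for PELI1 (WT6 minus WT10). With the RBM47 covariate PTGS2 in WT6 had 0.014 and PELI1 in MUT3 −0.00064, and WT10 minus MUT3 was −0.0016 for ANGPTL4, 0.00015 for PELI1 and 0.013 for C13orf15. Rank coding gave 0.0032 for LTBP1 in MUT3 and 0.020 for C13orf15 in WT10 minus MUT3, where edgeR gave 0.035. Removing length and GC trends gave untreated differences of −0.064 for LTBP1 (WT10 minus MUT3) and −0.094 for PTGS2 (WT6 minus WT10) and a slope difference of 0.033 for ST6GALNAC5 (WT6 minus WT10).

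Without 1 library, ranges that crossed 0 were −0.20 to 0.16 for PTGS2 in WT6. In WT10 they were −0.21 to 0.19 for PTGS2, −0.020 to 0.21 for ANGPTL4, −0.12 to 0.016 for FSCN1, −0.030 to 0.048 for PELI1 and −0.21 to 0.27 for C13orf15. In MUT3 they were −0.10 to 0.0077 for ST6GALNAC5, −0.021 to 0.085 for PTGS2, −0.029 to 0.20 for ANGPTL4, −0.015 to 0.048 for LTBP1 and −0.018 to 0.024 for PELI1. For WT10 minus MUT3 they were −0.26 to 0.14 for PTGS2, −0.13 to 0.17 for ANGPTL4, −0.036 to 0.043 for PELI1 and −0.13 to 0.35 for C13orf15. For WT6 minus WT10 they were −0.27 to 0.25 for PTGS2, −0.43 to 0.0092 for SERPINB2 and −0.27 to 0.039 for LTBP1. Untreated differences ran from −0.14 to 0.42 for LTBP1 (WT10 minus MUT3), −0.28 to 0.45 for PTGS2 and −0.10 to 0.019 for PELI1 (both WT6 minus WT10). Low read counts limit the slopes of C13orf15 in WT10 (13 to 95 reads) and MUT3 (15 to 19 reads) and of SERPINB2 in WT6 (14 to 56 reads).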
